A study of Mus musculus with 18 samples.

Results

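This report compares striatal microglia of mice that carried the Q175 allele and lacked *Tyrobp* (genotype Q175;Tyrobp-KO, here called double mutant) with those of WT mice, across all genes counted. The samples were taken by genotype from the labels, which gave 10 of the 18 samples of the series. These were the double mutant samples DM5, DM11, DM12, DM13 and DM16 and the WT samples WT1, WT2, WT6, WT7 and WT8. The double mutant mice were heterozygous for Q175, an allele in which human HTT exon 1 with an expanded CAG repeat replaces the mouse sequence at *Htt*, and homozygous for a null allele of *Tyrobp* in every cell. WT mice had neither allele. All mice were on a C57BL/6 background by the labels (C57Bl6/J by the methods), and their age is not given in the labels. The samples came from 2 female and 3 male double mutant mice and from 1 female and 4 male WT mice. Beads that bind CD11b, found on microglia and other myeloid cells, were used to enrich the cells, and libraries were made from very small amounts of RNA. Samples with *Tyrobp* deleted on their own (Tyrobp-KO, 3 samples) or with the Q175 allele on its own (Q175, 5 samples) are given only beside the comparison. The comparison asks how far Q175 microglia without *Tyrobp* lie from normal microglia.

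TYROBP, also called DAP12, is an adaptor protein of the myeloid cell surface. It pairs with receptors that have no signalling tail of their own, TREM2 among them, and passes their signal on through the kinase SYK. In microglia the pair is needed for the switch from the homeostatic state, marked by genes such as *P2ry12* and *Tmem119*, to a disease-associated state with high *Spp1*, *Cst7*, *Lpl*, *Clec7a* and *Itgax*. Striatal microglia are of interest in Huntington disease because the medium spiny neurons of the striatum are the cells most affected.

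The samples were deeply sequenced, with 15188201 to 29771983 counts in the double mutant and 13653391 to 18795365 in WT. Of these counts, 12.7% to 24.2% in the double mutant and 12.5% to 22.8% in WT fell on genes that resemble ribosomal RNA. All 20 microglia markers had counts in all 10 samples, and their level (the geometric mean of CPM, read counts scaled to the size of the library, plus 1) was 750.0 to 1039 in the double mutant and 731 to 984 in WT. Within the double mutant, 3 samples stood apart. The level of 16 astrocyte markers was 106, 70.6 and 64.8 in DM5, DM13 and DM16, against 22.7 in DM11, 22.3 in DM12 and 23.2 to 34.5 in WT. None of the markers was at 0 in any sample. The level of the 13 mitochondrially encoded genes was 158, 84.6 and 131 in the same 3 samples, against 38 and 42.1 in DM11 and DM12 and 38 to 64.5 in WT. Results are therefore given for all 5 double mutant samples and, where it matters, for DM11 and DM12 alone. Within WT, WT7 and WT8 differed from WT1, WT2 and WT6 in many microglial genes, for example with 4139 and 4171 CPM of *Csf1r*, the receptor for the growth factor that keeps microglia alive, against 1401, 2112 and 1265 CPM. In RNA from a mixture of cells, fewer cells of a type and less RNA per cell cannot be told apart.

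**Figure D1:**
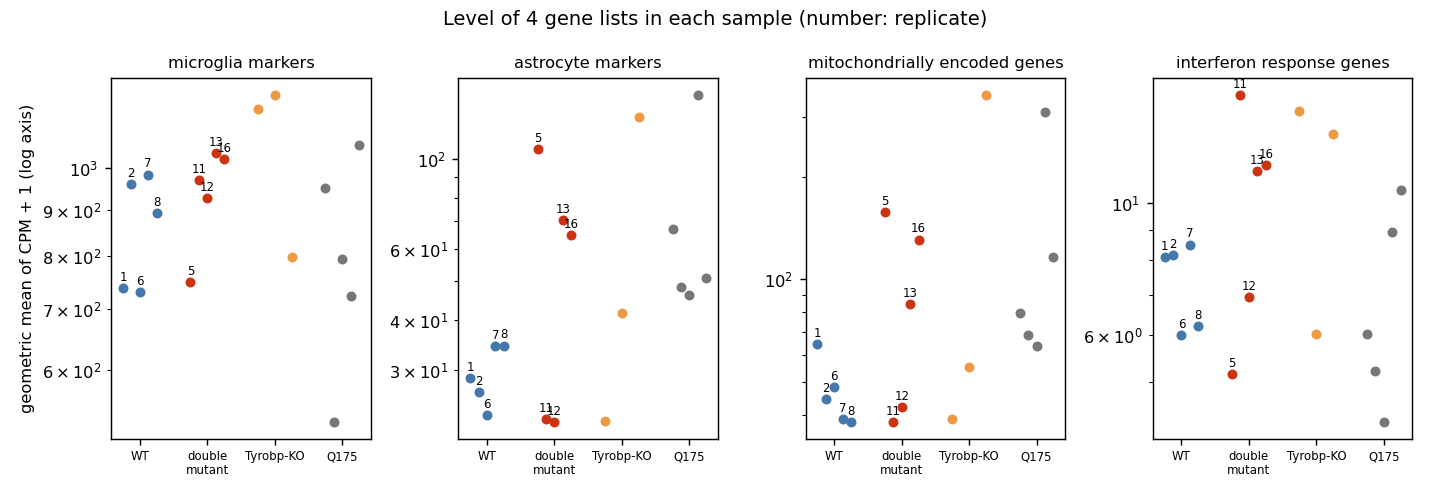
Level of 4 gene lists in each sample, as the geometric mean of CPM + 1 on log axes, with samples grouped by genotype on the horizontal axis and the replicate number printed for WT and the double mutant. Microglia markers overlap between WT and the double mutant, while DM5, DM13 and DM16 lie above all WT samples for astrocyte markers (64.8 to 106) and mitochondrially encoded genes, and DM11 is the highest of the 18 samples for interferon response genes (15.2).

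Of 18044 genes tested, 25 (0.139%) differed between the double mutant and WT at a false discovery rate (FDR) of 0.1 in edgeR's quasi-likelihood test: 22 were lower (0.122%) and 3 higher (0.0166%). The median log2 fold change over all genes was 0.0042. At an unadjusted p under 0.05 there were 1109 genes (6.15%), 603 higher (3.34%) and 506 lower (2.8%). The genes that passed the FDR were thus mostly lower, while the larger set was not. DESeq2 called 123 genes (0.682%), 47 higher (0.26%) and 76 lower (0.421%), and all 25 were among them. The lower genes had a median log2 fold change of -2.35, and 21 of 22 were lower by more than 1 on the log2 scale. In 24 of the 25 genes the double mutant and WT samples did not overlap, against 33 genes higher (0.183%) and 104 lower (0.576%) without overlap among all genes. With 1 sample left out at a time, 9 to 26 genes were called, and 9 of the 25 were called each time. There were 9 calls without WT1, 15 without WT2, 13 without DM12, 15 without DM13 and 10 without DM16. With DM11 and DM12 as the double mutant samples, edgeR called 5 genes, which were *Tyrobp*, *Spp1*, *St8sia6*, *Mmp12* and, higher, *Zfp14*. DESeq2 then called 41, with 24 of the 25 among them. In that fit every one of the 25 kept its direction, and the log2 fold changes ran from -6.49 to -0.73 for the lower genes and from 0.99 to 2.19 for the higher ones.

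**Figure D2:**
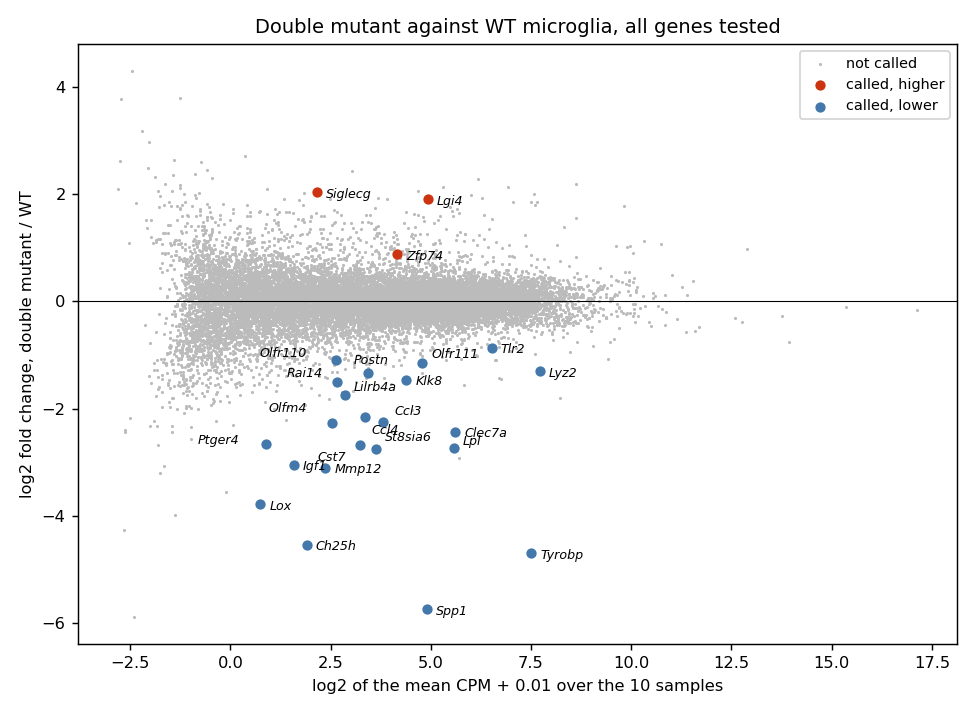
Log2 fold change of the double mutant over WT (vertical axis) against the log2 mean CPM of the 10 samples (horizontal axis), with 1 point per gene tested. The 22 genes called lower (blue) include *Tyrobp* at -4.70 and *Spp1* at -5.74, and the 3 called higher (red) are *Lgi4*, *Siglecg* and *Zfp74*.

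*Tyrobp* itself (ENSMUSG00000030579, chr7:30413760-30417585, plus strand in GRCm38) had 452, 394, 475, 239 and 196 CPM in WT1, WT2, WT6, WT7 and WT8 and 9.89, 14.3, 12.8, 14.6 and 13.2 CPM in DM5, DM11, DM12, DM13 and DM16, an order of samples kept below. It fell to 3.69% of the WT mean (log2 fold change -4.70, SE 0.27, adjusted p = 8.93e-06), with all double mutant samples far below all WT samples. Tyrobp-KO samples had 17.5 to 21.3 CPM and Q175 samples 213 to 368 CPM, so the samples matched their labels for *Tyrobp*. The Q175 allele was not checked. WT7 and WT8 had the lowest values among the WT samples.

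Of the 25 genes called, 12 are in the list of disease-associated genes used here. Of the 40 genes of the list, 38 were tested and 12 fell (31.6%, against 0.122% of all genes lower), and none rose. At an unadjusted p under 0.05, 26 were lower, against 2.8% of all genes, and none was higher. The median log2 fold change of the 38 was -0.81, against 0.0042 over all genes, and -0.87 with DM11 and DM12 alone. The level of the list was 26.6, 27.6, 25.4, 27 and 27.6 in the double mutant samples and 58.3, 56.6, 43.8, 57.6 and 54.3 in the WT samples. The groups did not overlap, and the double mutant samples differed little among themselves. It was 27.8 to 34.2 in Tyrobp-KO and 29.3 to 76 in Q175. The list was drawn up with results of these data known, so its direction and its share of calls are a description. Of the 10 fits that each left out a sample, *Spp1*, *Igf1*, *Cst7*, *Clec7a* and *Ccl3* kept their call in 10, *Lyz2* and *Postn* in 7, *Lilrb4a* in 5, *Ccl4* and *Mmp12* in 4, *Ch25h* in 2 and *Lpl* in 1.

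Secreted and matrix proteins came first. *Spp1*, which encodes the secreted phosphoprotein osteopontin, had 88, 63.1, 18, 59.1 and 66.9 CPM in WT and 3.88, 0.820, 0.433, 0.358 and 0.212 CPM in the double mutant (log2 fold change -5.74, SE 0.71, adjusted p = 0.00801), which is 1.93% of the WT mean. WT6 was the lowest WT sample and DM5 the highest double mutant sample, and the groups did not overlap. *Igf1*, a growth factor that microglia supply to neurons and oligodendrocyte precursors, fell from 6.32, 3.82, 3.26, 6.00 and 7.30 CPM to 0.877, 0.561, 0.866, 0.298 and 0.467 CPM (log2 fold change -3.05, SE 0.36, adjusted p = 0.00514). *Mmp12*, the macrophage elastase, fell from 13, 8.65, 5.69, 7.43 and 11.4 CPM to 2.07, 0.605, 0.167, 1.91 and 0.679 CPM (log2 fold change -3.10, SE 0.52, adjusted p = 0.0578). DM5 and DM13 were the highest double mutant samples for *Mmp12*, with no overlap with WT for either gene. *Postn*, which encodes the matrix protein periostin, fell, with 11.5 to 22.1 CPM in WT and 5.07 to 6.93 CPM in the double mutant (log2 fold change -1.35, SE 0.21, adjusted p = 0.0335).

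Lipid genes of the list fell too. *Lpl*, the lipase that frees fatty acids from lipoproteins, had 57.3, 61, 16.5, 136 and 143 CPM in WT and 12.3, 13.6, 15.2, 9.30 and 9.59 CPM in the double mutant (log2 fold change -2.74, SE 0.47, adjusted p = 0.0644). WT7 and WT8 were the highest and WT6, at 16.5 CPM, lay just above DM12, at 15.2 CPM. Leaving out 1 sample at a time, *Lpl* was called in 1 of 10 fits (without WT6), with adjusted p between 0.00269 and 0.254. *Ch25h*, the enzyme that makes 25-hydroxycholesterol, had 10.6, 7.58, 0.652, 11.3 and 5.79 CPM in WT and 0.125, 0.173, 0.233, 0 and 0.849 CPM in the double mutant (log2 fold change -4.54, SE 0.79, adjusted p = 0.0683). It was the called gene whose groups overlapped, since WT6 lay below DM16. Its double mutant values rest on 33 counts in all.

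Receptors and lysosomal genes followed. *Clec7a*, which encodes the beta-glucan receptor dectin-1, fell from 113, 104, 62.5, 65.5 and 70.1 CPM to 10.2, 26, 18.1, 10.2 and 8.74 CPM (log2 fold change -2.44, SE 0.32, adjusted p = 0.0146), with DM11 the highest double mutant sample and no overlap. *Cst7*, an inhibitor of lysosomal cathepsins, fell from 23, 13.5, 8.60, 22.6 and 14.6 CPM to 1.38, 2.59, 2.63, 2.09 and 3.52 CPM (log2 fold change -2.68, SE 0.31, adjusted p = 0.00514). *Lyz2*, which encodes lysozyme, had 335, 317, 430.4, 218 and 212 CPM in WT and 119.8, 126, 111, 129 and 103 CPM in the double mutant (log2 fold change -1.31, SE 0.19, adjusted p = 0.0312). The groups did not overlap for *Cst7* or *Lyz2*. *Lyz2* has a near-identical copy, *Lyz1*, with which its reads could have been split. *Lilrb4a*, an inhibitory receptor, had 7.35 to 15.4 CPM in WT and 2.08 to 4.59 CPM in the double mutant (log2 fold change -1.74, SE 0.27, adjusted p = 0.0372). It is uncertain because it has a close copy, *Lilrb4b*, and an antisense gene at the same place had 7.43 CPM in WT and 8.21 CPM in the double mutant on average.

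Among the chemokine genes of the list, a neighbouring pair fell. *Ccl3*, whose protein attracts monocytes, had 37.9, 21.5, 20.9, 20.5 and 16.2 CPM in WT and 3.07, 5.18, 5.40, 4.17 and 5.52 CPM in the double mutant (log2 fold change -2.26, SE 0.24, adjusted p = 0.00376). *Ccl4*, its neighbour on chromosome 11, had 25.4, 21.3, 10.4, 12.8 and 14.1 CPM in WT and 1.94, 6.78, 2.60, 2.62 and 3.82 CPM in the double mutant (log2 fold change -2.17, SE 0.36, adjusted p = 0.0545). WT1 was the highest sample for both, DM5 the lowest for both, and neither gene had an overlap between the groups.

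**Figure D3:**
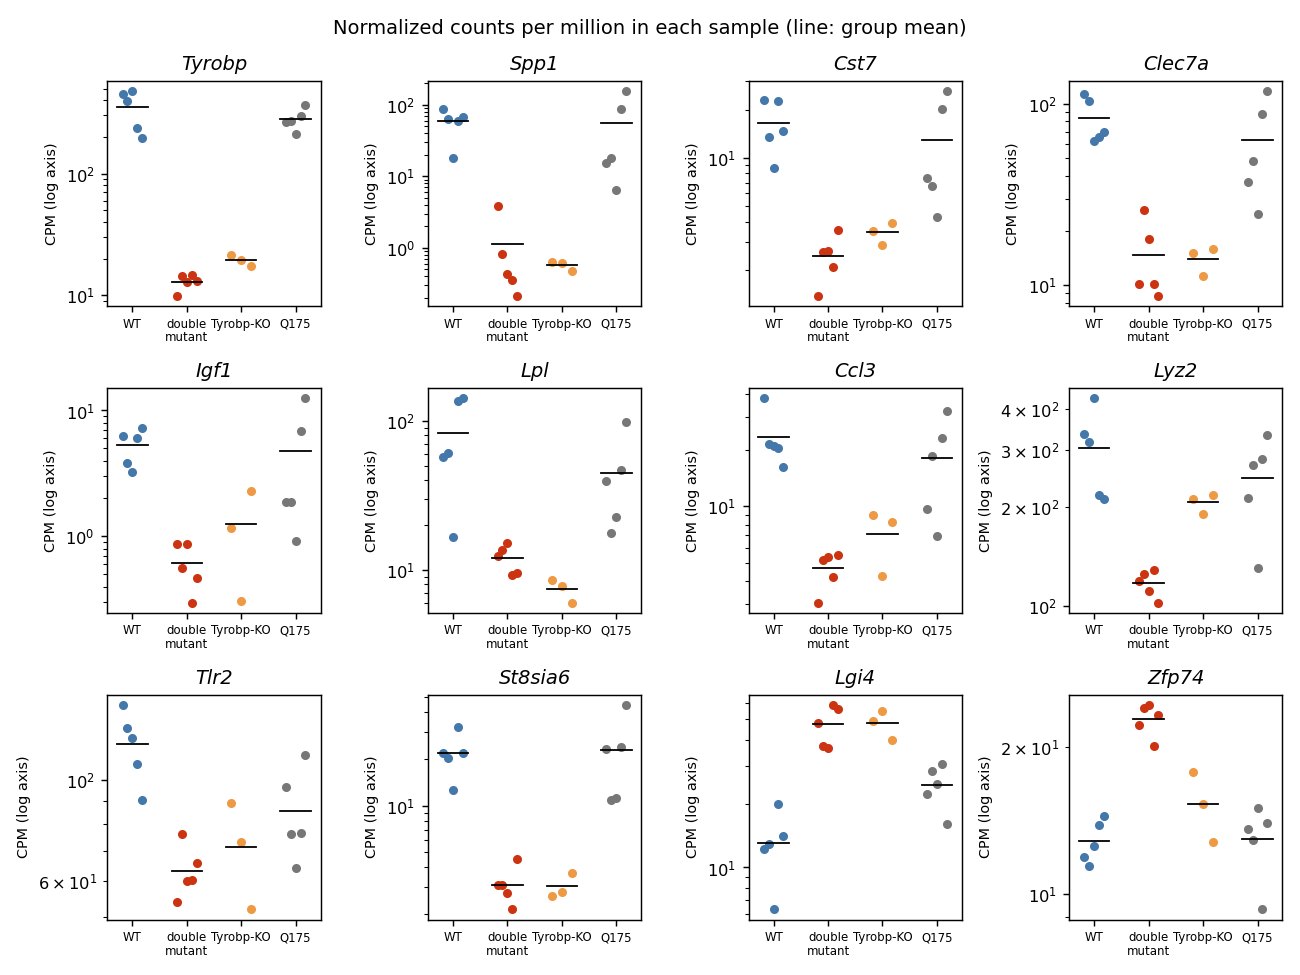
CPM of 12 of the 25 called genes in each sample on log axes, with samples grouped by genotype (WT blue, double mutant red, Tyrobp-KO orange, Q175 grey) and a line at each group mean. The double mutant and WT samples do not overlap in any of the 12 panels, and the Tyrobp-KO samples lie among or beside the double mutant samples for *Spp1*, *St8sia6* and *Lgi4* but below them for *Zfp74*.

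The other members of the list did not pass the FDR with edgeR. *Itgax*, which encodes CD11c, had 23.4, 23.9, 10.3, 66.2 and 63.5 CPM in WT and 3.63, 16.8, 7.49, 7.81 and 8.11 CPM in the double mutant (log2 fold change -2.03, SE 0.51, adjusted p = 0.458, DESeq2 adjusted p = 0.0108). WT7 and WT8 were the highest, while WT6 lay among the double mutant samples. *Cd52*, a small surface glycoprotein, had 19.8 to 50 CPM in WT and 11.6 to 19.8 CPM in the double mutant, with a log2 fold change of -1.02 and an adjusted p of 0.414. The tetraspanin genes *Cd9* and *Cd63* had log2 fold changes of -0.83 and -0.79, and the cathepsin gene *Ctsl* -0.76. For these 3 genes WT1, WT2 and WT6 were the high samples, and WT7 and WT8 came close to or within the double mutant range of 299.7 to 446, 54.6 to 67.2 and 255 to 317 CPM. *Apoe*, which encodes the main apolipoprotein of the brain, had 226, 363, 186, 622 and 473 CPM in WT and 452, 129, 182, 304 and 345 CPM in the double mutant (log2 fold change -0.37, adjusted p = 0.789). It was lowest in DM11 and DM12 and highest in DM5, as the astrocyte markers were, and its log2 fold change was -1.20 with DM11 and DM12 alone. Astrocytes also express *Apoe*, and with a term for astrocyte, neuronal and oligodendrocyte genes its log2 fold change was -0.85. Lysosomal genes that are abundant in every microglial state were near 0, with -0.13 for *Ctsb*, 0.11 for *Ctsd* and 0.058 for *Cd68*.

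The 250 bases before the transcription start of the called genes were read from RefSeq (GRCm38.p6), where 19 of the 25 called genes and 17 of the 22 lower ones had a window. Windows of 5 disease-associated genes are shown, chosen after their values were seen, whose RefSeq start lies at most 23 bases from the annotated start of the gene. Among them, 2 hold and 3 lack the exact letters GAGGAAGT, the only form searched of the motif of PU.1, the factor that sets the myeloid lineage. Each is printed 5′ to 3′ on the strand of its gene, with matches to the searched motifs in capitals: *Spp1* at chr5:104434861-104435110, plus strand, *Mmp12* at chr9:7344147-7344396, plus strand, *Cst7* at chr2:150570165-150570414, plus strand, *Clec7a* at chr6:129472786-129473035, minus strand and *Ccl3* at chr11:83649379-83649628, minus strand.
Spp1: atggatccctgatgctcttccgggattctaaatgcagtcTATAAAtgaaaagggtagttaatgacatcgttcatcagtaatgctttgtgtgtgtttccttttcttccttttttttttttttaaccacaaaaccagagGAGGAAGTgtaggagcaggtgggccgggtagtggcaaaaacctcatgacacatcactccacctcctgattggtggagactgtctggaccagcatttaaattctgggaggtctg
Mmp12: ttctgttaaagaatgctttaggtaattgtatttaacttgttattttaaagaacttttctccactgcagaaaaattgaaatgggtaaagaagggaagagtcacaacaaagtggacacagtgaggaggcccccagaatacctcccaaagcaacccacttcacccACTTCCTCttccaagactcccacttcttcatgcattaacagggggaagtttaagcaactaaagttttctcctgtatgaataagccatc
Cst7: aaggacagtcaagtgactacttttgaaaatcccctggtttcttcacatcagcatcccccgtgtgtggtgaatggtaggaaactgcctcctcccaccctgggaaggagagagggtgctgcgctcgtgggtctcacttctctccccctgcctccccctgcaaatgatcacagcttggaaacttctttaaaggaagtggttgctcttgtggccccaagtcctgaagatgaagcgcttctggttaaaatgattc
Clec7a: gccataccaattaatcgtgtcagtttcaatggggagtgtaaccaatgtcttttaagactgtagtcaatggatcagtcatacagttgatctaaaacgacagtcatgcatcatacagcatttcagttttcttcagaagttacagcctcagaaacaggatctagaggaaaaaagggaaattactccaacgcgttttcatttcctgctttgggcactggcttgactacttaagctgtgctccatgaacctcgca
Ccl3: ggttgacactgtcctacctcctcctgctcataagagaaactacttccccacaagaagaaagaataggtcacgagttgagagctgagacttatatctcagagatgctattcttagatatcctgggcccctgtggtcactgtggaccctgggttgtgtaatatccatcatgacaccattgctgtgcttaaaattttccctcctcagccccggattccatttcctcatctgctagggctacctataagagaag

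The letters GAGGAAGT of PU.1, searched on both strands, were in 3 of the 17 windows of lower genes (*Spp1* at -113 to -106 from the start, *Mmp12* at -88 to -81, and *Olfm4*, whose RefSeq start lies 16221 bases from the annotated one), against 2.44% of 32817 promoter windows of the same length. The AP-1 letters TGANTCA were in 1 of 17 (*Igf1*, whose RefSeq start lies 2846 bases from the annotated one), against 6.75% of all windows. The TATA box letters TATAAA were in 2 of 17 (*Spp1* and *Ch25h*), against 12.4%. In *Spp1* the TATAAA match lies at -211 to -206. Neither the E-box CACGTG (6.02% of all windows) nor the NF-kB motif (0.357%) was in any of the 17. The matches do not overlap each other, and a match is not a measured binding site.

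The 10 other genes that fell lay outside the list, *Tyrobp* among them. *St8sia6*, a sialyltransferase that adds sialic acids to glycoproteins, had the smallest adjusted p after *Tyrobp*: 21.8, 20.1, 12.7, 32 and 22 CPM in WT against 3.07, 3.07, 2.73, 2.15 and 4.498 CPM in the double mutant (log2 fold change -2.75, SE 0.26, adjusted p = 0.00138). Its groups were far apart, and with *Tyrobp* and *Spp1* it was called in all 24 alternatives. *Olfm4*, a secreted glycoprotein known from neutrophils and gut, fell from 13.3, 9.05, 10.4, 9.30 and 6.01 CPM to 1.19, 2.98, 1.10, 2.92 and 1.32 CPM (log2 fold change -2.27, SE 0.34, adjusted p = 0.0322). The monocyte and neutrophil markers had no call, with levels of 2.21 to 13.4 in WT and 3.86 to 9.97 in the double mutant. The cells from which the *Olfm4* reads came were not tested. *Olfr111*, an olfactory receptor gene of chromosome 17, fell, with 34.7 to 44.1 CPM in WT and 13 to 23.3 CPM in the double mutant (log2 fold change -1.16, SE 0.18, adjusted p = 0.0372). Its neighbour *Olfr110* had 7.20 to 9.79 CPM and 2.63 to 5.01 CPM (log2 fold change -1.10, SE 0.20, adjusted p = 0.0968), and the similar sequences of the pair could share reads. *Tlr2*, the toll-like receptor for bacterial lipoproteins, fell from 146, 130.1, 124, 108 and 90.4 CPM to 53.8, 76.1, 60, 60.4 and 65.8 CPM (log2 fold change -0.86, SE 0.15, adjusted p = 0.0774), the smallest change among the lower genes, with no overlap. *Ptger4*, a receptor for prostaglandin E2, fell, with 1.94 to 4.65 CPM in WT and 0.300 to 0.993 CPM in the double mutant (log2 fold change -2.65, SE 0.43, adjusted p = 0.0421). These values rest on 53 double mutant counts, and *Ttc33* overlaps on the opposite strand at 16.7 CPM. *Lox*, which crosslinks collagen and elastin, had 2.29, 2.01, 1.36, 6.90 and 3.03 CPM in WT and 0.438, 0.302, 0, 0.0596 and 0.297 CPM in the double mutant (log2 fold change -3.78, SE 0.70, adjusted p = 0.0968). These rest on 22 counts over the 5 double mutant samples. *Rai14*, an actin-binding protein, fell, with 6.58 to 12.3 CPM in WT and 1.97 to 4.02 CPM in the double mutant (log2 fold change -1.51, SE 0.25, adjusted p = 0.0526). *Olfr110* was named after its values were seen, because it completes the calls. Of the 10 fits that each left out a sample, *St8sia6* kept its call in 10, *Olfm4* in 8, *Olfr111* in 6, *Ptger4* and *Rai14* in 3, *Tlr2* in 2, *Lox* in 1 and *Olfr110* in none.

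Receptors and signalling partners of TYROBP held no calls. Of 33 genes for its receptors and the signalling below them, 28 were tested and none was called by edgeR or DESeq2, with a median log2 fold change of 0.25. At an unadjusted p under 0.05, 1 gene was higher (*Itgam*) and 1 lower (*Fgr*), against 3.34% and 2.8% of all genes. *Trem2*, the best known receptor of the pair, had 229.5, 304, 236, 262 and 165 CPM in WT and 193, 178, 244, 258 and 232 CPM in the double mutant (log2 fold change -0.062, SE 0.17, adjusted p = 0.914), with the groups interleaved. *Fcer1g*, the related adaptor of Fc receptors, had 377, 293, 415, 179.5 and 162 CPM in WT and 189, 215, 207, 193 and 207 CPM in the double mutant, with a log2 fold change of -0.44 and an adjusted p of 0.752. WT1, WT2 and WT6 were high and WT7 and WT8 lay below the double mutant samples. *Syk* had a log2 fold change of 0.47 (SE 0.33) and *Plcg2*, the phospholipase that SYK activates, 0.37 (SE 0.32), and in both WT7 and WT8 were the high WT samples. *Fgr*, a SRC-family kinase, had 3.30, 5.23, 2.49, 14.1 and 12.4 CPM in WT and 2.13, 2.89, 2.03, 3.28 and 3.31 CPM in the double mutant (adjusted p = 0.691). WT7 and WT8 stood above all other samples. *Itgam* encodes CD11b, by which the cells were captured, and had 48.4 to 146 CPM in WT and 118 to 187 CPM in the double mutant (log2 fold change 0.70). Whether the capture bears on these values was not tested. *Hcst*, the sister adaptor DAP10, is the gene next to *Tyrobp*, on the other strand, and had 2.38 to 6.32 CPM in WT and 2.38 to 4.58 CPM in the double mutant.

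Homeostatic microglial genes had no member called by edgeR among 26 tested and a median log2 fold change of 0.17. *Cd33* alone was lower at an unadjusted p under 0.05 and by DESeq2, against 2.8% and 0.421% of all genes. *P2ry12*, the receptor that senses ADP, had 2707, 2144, 2591, 1184 and 1474 CPM in WT and 1351, 2033, 1785, 1656 and 1661 CPM in the double mutant (log2 fold change -0.19, SE 0.24). *Tmem119* had 424, 1023, 381, 1402 and 1086 CPM and 816, 1078, 1075, 1373 and 1186 CPM (0.40, SE 0.34), and *Cx3cr1*, the receptor for the neuronal chemokine fractalkine, 907, 1349, 779, 2597 and 3037 CPM and 1865, 2487, 2091, 2709.9 and 2744 CPM (0.50, SE 0.36). In each of the 3 the double mutant samples lay within the range of the WT samples, which was wider. Of 22 microglial transcription factors, 21 were tested and none was called by edgeR, and *Hif1a*, the hypoxia factor, was lower at an unadjusted p under 0.05 and by DESeq2, with 123 to 166 CPM in WT and 99 to 113 CPM in the double mutant (log2 fold change -0.42, adjusted p = 0.631). *Spi1*, which encodes PU.1, had a log2 fold change of 0.36 (SE 0.32), and *Sall1*, the factor particular to microglia within the brain, 0.40 (SE 0.36).

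Other immune lists held few calls, most of them disease-associated genes already counted above. Among phagocytic and pattern receptors 2 of 27 tested fell (*Clec7a*, of the disease-associated list, and *Tlr2*), against 0.122% of all genes. In the same list 8 were lower at an unadjusted p under 0.05, against 2.8% of all genes, with a median log2 fold change of -0.33. *Cd36*, the scavenger receptor for oxidized lipids, had 10.2, 5.63, 5.16, 3.98 and 4.06 CPM in WT and 1.06, 1.38, 2.63, 1.43 and 0.721 CPM in the double mutant (log2 fold change -1.93, SE 0.37, adjusted p = 0.124, DESeq2 adjusted p = 0.000271), with no overlap. *Msr1*, another scavenger receptor, had 2.19 to 4.31 CPM in WT and 1.30 to 1.91 CPM in the double mutant, also with no overlap and with an adjusted p of 0.427. Of 14 chemokine genes tested, 2 fell, which were the *Ccl3* and *Ccl4* given above, around a median of -0.23. At an unadjusted p under 0.05, 5 were lower and 1 higher, against 2.8% and 3.34% of all genes. *Cxcl16* had 38.9, 44.3, 39.2, 54 and 37.4 CPM in WT and 16.5, 27.2, 19, 23.5 and 26.8 CPM in the double mutant, without overlap, with a log2 fold change of -0.86 and an adjusted p of 0.148 with edgeR and 0.000693 with DESeq2. *Cxcl14*, the chemokine gene with the highest log2 fold change (1.46), had 30.9, 21 and 21.3 CPM in DM5, DM13 and DM16 and 4.92 and 4.46 CPM in DM11 and DM12, against 3.14 to 10.4 CPM in WT. Its higher samples were the 3 with high astrocyte markers. With a term for astrocyte, neuronal and oligodendrocyte genes its log2 fold change was 0.49.

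Cytokines and NF-kB feedback genes had no call among 17 tested with edgeR and a median of -0.21. At an unadjusted p under 0.05, 5 were lower and 1 higher, against 2.8% and 3.34% of all genes. DESeq2 called 1 lower (*Nfkbia*), against 0.421% of all genes. *Nfkbia*, the inhibitor that NF-kB itself induces, had 47.5, 63.4, 60.3, 44.9 and 39.7 CPM in WT and 29.9, 30.5, 36.2, 36.6 and 36 CPM in the double mutant (log2 fold change -0.54, adjusted p = 0.570) without overlap. *Il1b* had 2.33 to 6.46 CPM in WT and 1.70 to 3.04 CPM in the double mutant (log2 fold change -0.88, adjusted p = 0.731), while *Tnf* had 3.79 to 6.30 and 2.53 to 5.01 CPM (-0.21). Complement genes had no call with edgeR among 13 tested and a median of -0.27, with 3 lower and 1 higher at an unadjusted p under 0.05 and 1 lower by DESeq2 (*Itgax*). *C3ar1*, the receptor for the fragment C3a, had 420.2, 330.1, 481, 199 and 242 CPM in WT and 163, 224, 174.7, 218 and 197 CPM in the double mutant (log2 fold change -0.72), again with WT1, WT2 and WT6 the high samples. The 3 genes of C1q, by which microglia tag synapses, had no call, with log2 fold changes of -0.058 for *C1qa*, 0.20 for *C1qb* and 0.089 for *C1qc*. Against 0.122% of all genes, of 30 lysosomal genes tested 2 fell (*Cst7* and *Lyz2*), of 22 lipid handling genes 2 fell (*Lpl* and *Ch25h*), and of 22 adhesion, matrix and growth factor genes 4 fell (*Spp1*, *Lox*, *Mmp12* and *Igf1*), with medians of -0.17, -0.11 and -0.089. Of these called genes, *Lox* alone is not in the disease-associated list. *Scd1*, a desaturase of the lipid list, had 94.8, 23.1, 23.9, 101 and 106 CPM in the double mutant and 13.3 to 46.3 CPM in WT, high in DM5, DM13 and DM16 like the astrocyte markers.

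**Figure D4:**
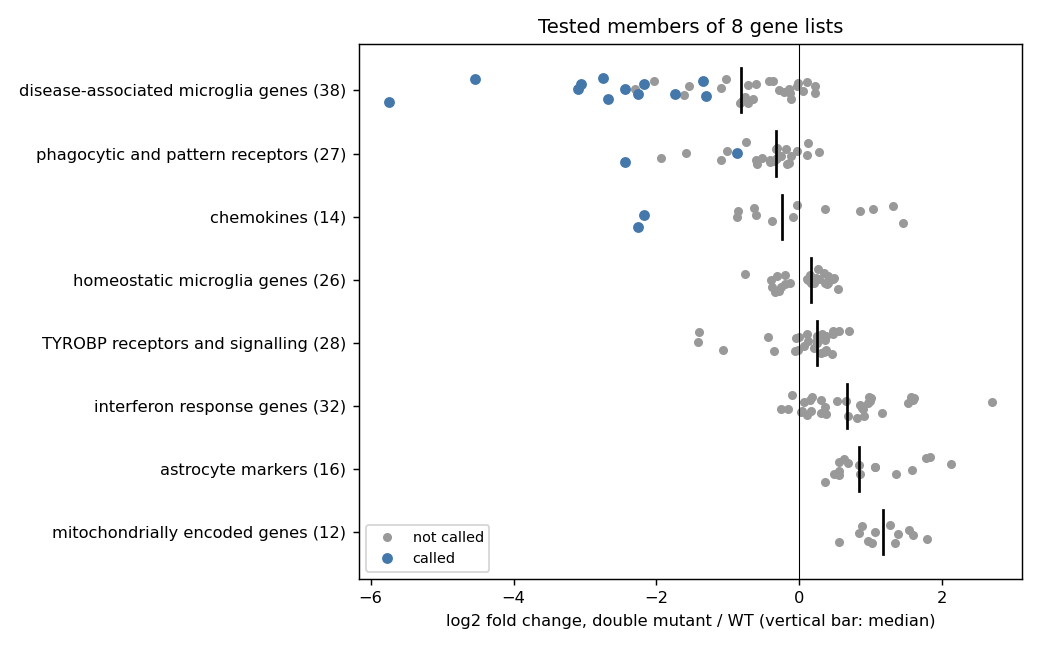
Log2 fold change of the double mutant over WT for each tested member of 8 gene lists (horizontal axis, with 1 point per gene, called genes in blue and a bar at the list's median), with the number of tested members after each name. The medians run from -0.81 for the disease-associated genes to 1.17 for the mitochondrially encoded genes, and 12 of the 38 disease-associated genes are called.

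Among sialic acid genes, 1 was called in each direction. Of 24 sialyltransferases and Siglecs, the receptors that bind sialic acids, *St8sia6* fell and *Siglecg* rose, against 0.122% of all genes lower and 0.0166% higher. At an unadjusted p under 0.05, 4 were higher and 3 lower, against 3.34% and 2.8% of all genes, around a median of 0.0062. *Siglecg*, an inhibitory Siglec best known from B cells, had 1.12, 1.34, 0.889, 2.93 and 2.71 CPM in WT and 4.07, 6.78, 8.89, 9.07 and 6.62 CPM in the double mutant (log2 fold change 2.03, SE 0.37, adjusted p = 0.0910), without overlap and with DM5 the lowest double mutant sample. It was called in 10 of 24 alternatives and in 2 of the 10 fits that left out a sample. *Cd33*, the mouse relative of the human Siglec-3 gene and a far more abundant transcript, had 1017, 904, 983, 724 and 851 CPM in WT and 378, 575, 468, 599 and 532 CPM in the double mutant (log2 fold change -0.76, SE 0.17). The groups did not overlap, and the adjusted p was 0.310 with edgeR and 0.000847 with DESeq2. *Siglece* had 19.4 to 45.8 CPM in WT and 34.2 to 55.5 CPM in the double mutant, with a log2 fold change of 0.61 and an adjusted p of 0.752. *Siglecg*, *Cd33* and *Siglece* lie together on chromosome 7, 12.99 to 13.23 Mb from *Tyrobp*.

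All 3 genes that rose lie on chromosome 7 near *Tyrobp*, so the place of the calls was examined. Within 15 Mb of *Tyrobp*, 4 of 403 other genes tested were called (0.993%), 3 higher and 1 lower, against 20 of 17640 genes in the rest of the genome (0.113%), all 20 lower. The region was examined because of these same calls, so the shares are a description. The remaining 980 tested genes of chromosome 7 had 0 calls with edgeR, 32 higher and 25 lower at an unadjusted p under 0.05, and 1 higher and 2 lower with DESeq2. *Lgi4* (ENSMUSG00000036560, chr7:31059342-31070935, plus strand), a secreted protein known from the myelination of peripheral nerves, is 0.64 Mb from *Tyrobp* and had 12.2, 12.9, 6.34, 20 and 14.1 CPM in WT and 48.3, 37.3, 36.8, 58.6 and 55.7 CPM in the double mutant (log2 fold change 1.90, SE 0.26, adjusted p = 0.0150). Its level in Tyrobp-KO was 40.1 to 54.6 CPM, like the double mutant, and in Q175 16.1 to 30.7 CPM, below all double mutant samples. *Zfp74* (ENSMUSG00000059975, chr7:29930815-29954089, minus strand), a zinc finger gene on the other side of *Tyrobp*, had 11.9, 11.4, 12.6, 13.9 and 14.4 CPM in WT and 22.2, 24, 24.4, 20.1 and 23.3 CPM in the double mutant (log2 fold change 0.88, SE 0.13, adjusted p = 0.0335). Tyrobp-KO samples had 12.8 to 17.8 CPM of *Zfp74* and Q175 samples 9.31 to 15 CPM, both below all double mutant samples. With 1 sample left out *Lgi4* kept its call in 10 of 10 fits and *Zfp74* in 6. *Klk8*, a protease at 13.38 Mb, fell from 31, 40, 30.1, 35 and 19.1 CPM to 7.45, 11.7, 12.5, 11.3 and 11 CPM (log2 fold change -1.46, SE 0.20, adjusted p = 0.0172), without overlap. An antisense gene at the same place had 3.86 CPM in WT and 1.67 CPM in the double mutant on average. Sequence linked to the *Tyrobp* null allele and the deletion itself cannot be told apart in these samples, since Tyrobp-KO and double mutant mice carry both. Why *Zfp74* was higher in the double mutant than in Tyrobp-KO was not tested.

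**Figure D5:**
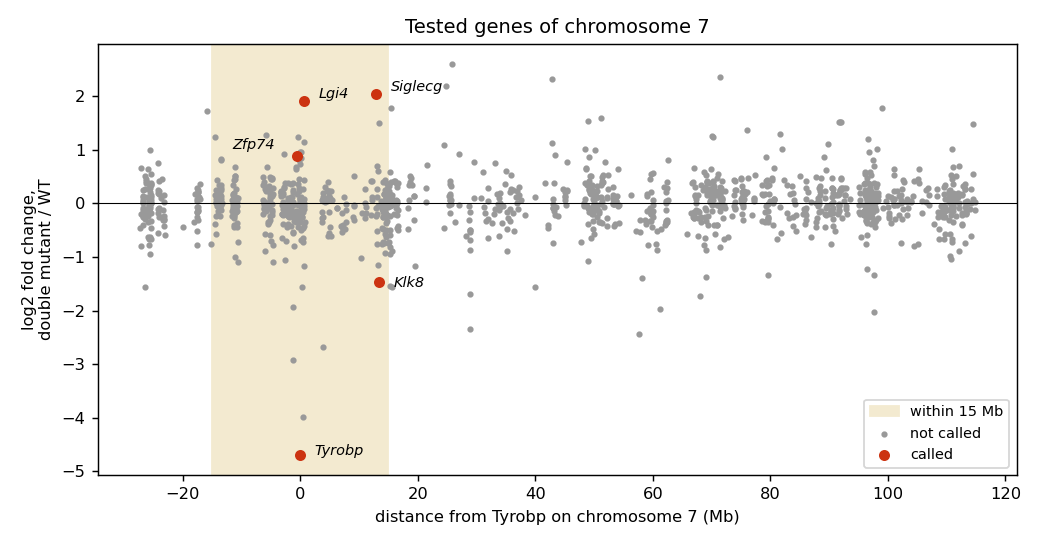
Log2 fold change of the double mutant over WT (vertical axis) for each tested gene of chromosome 7 against its distance from *Tyrobp* in Mb (horizontal axis), with called genes in red and the 15 Mb on either side shaded. All 5 called genes of the chromosome, *Tyrobp* included, lie in the shaded part, where *Lgi4*, *Zfp74* and *Siglecg* are higher.

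Of all genes tested, 33 (0.183%) were higher without overlap between the groups. Among them, 7 further genes with a mean of at least 50 normalized counts are given as values, and none of the 7 passed the FDR with edgeR. *Khdrbs3*, an RNA-binding protein, had 22.1, 28, 23.2, 27.4 and 26 CPM in WT and 33.8, 37.8, 46.2, 42.7 and 39.3 CPM in the double mutant (log2 fold change 0.71, adjusted p = 0.119), and 37.6 to 42.2 CPM in Tyrobp-KO. *Zfp14*, close to *Zfp74*, had 21.4, 15.8, 18, 11.7 and 14.6 CPM and 39.7, 47.2, 49.5, 22.6 and 26.9 CPM (log2 fold change 1.25, adjusted p = 0.124). DM13 and DM16 were the lowest double mutant samples, and the gene was called with DM11 and DM12 alone (1.65, adjusted p = 0.0992). *Zfp658*, 13.14 Mb from *Tyrobp*, had a log2 fold change of 0.70, and *G530011O06Rik*, a noncoding transcript of the X chromosome, 1.52. *Kif5b* and *Trak2*, a kinesin and the adaptor that ties mitochondria to it, had log2 fold changes of 1.04 and 1.34. *Trak2* had 202, 59.7, 60.6, 142 and 155 CPM in the double mutant and 43.1 to 58.8 CPM in WT, and *Kif5b* 310.5, 141, 130, 259.8 and 263 CPM and 97.5 to 124 CPM. Both were highest in DM5, DM13 and DM16, and both log2 fold changes were smaller with DM11 and DM12 alone (for *Kif5b* and then *Trak2*, 0.36 and 0.34). *Eps8*, an actin regulator, had a log2 fold change of 0.82. DESeq2's first 10 higher genes added *Zfp30*, *1500009C09Rik* and *Sparcl1*. *Sparcl1*, a matrix protein that astrocytes secrete, had 624.7, 84.9, 72.5, 382 and 359 CPM in the double mutant against 65 to 97.5 CPM in WT, and its log2 fold change of 1.99 was 0.082 with DM11 and DM12 alone.

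Interferon response genes lay above 0 for 29 of 32 tested, with a median log2 fold change of 0.68. None was called by edgeR or by DESeq2, and 11 of 32 were higher at an unadjusted p under 0.05, against 3.34% of all genes. The level of the list was 5.16, 15.2, 6.94, 11.3 and 11.6 in the double mutant samples and 8.11, 8.16, 5.99, 8.50 and 6.20 in the WT samples. DM11, DM13 and DM16 lay above all WT samples, DM12 within them and DM5 below them. The astrocyte markers were lowest in DM11 and DM12, and the cause of the spread in interferon genes was not tested. *Ifi44* had 0.188, 7.51, 0.366, 1.01 and 1.87 CPM in the double mutant and 0.0593 to 0.675 CPM in WT (log2 fold change 2.71, SE 0.92, adjusted p = 0.738), with DM11 the highest by far. *Rsad2*, which encodes the antiviral enzyme viperin, had 2.88, 12.6, 6.00, 8.23 and 7.26 CPM and 2.06 to 5.70 CPM (0.98, SE 0.37). *Irf7*, the factor that amplifies the interferon response, had 2.88, 16.7, 5.26, 15.1 and 13.6 CPM and 3.13 to 9.38 CPM (1.01, SE 0.46). In these 3 genes DM5 lay among the WT samples or just below them. Tyrobp-KO levels of the list were 6.02 to 14.2 and Q175 levels 4.28 to 10.5, and both ranges overlap those of WT and of the double mutant. With DM11 and DM12 alone the median was 0.61, and with 1 sample left out it lay between 0.45 and 0.86.

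Genes of other cells and of mitochondria moved with DM5, DM13 and DM16. For the counts below, 3.34% of all genes were higher and 2.8% lower at an unadjusted p under 0.05. DESeq2 called 0.26% of all genes higher and 0.421% lower. Of 16 astrocyte markers all lay above 0, 8 at an unadjusted p under 0.05 and 3 called by DESeq2, none by edgeR, with a median log2 fold change of 0.85 that was -0.36 with DM11 and DM12 alone and 0.17 with the mean scaled level of astrocyte, neuronal and oligodendrocyte genes added to the model. *Aqp4*, the water channel of astrocyte endfeet, had 78.9, 13.9, 10.4, 37.9 and 37.5 CPM in the double mutant and 14.6 to 20.2 CPM in WT, high in DM5, DM13 and DM16 alone. Mitochondrially encoded genes had a median of 1.17 over 12 tested, 9 of them higher at an unadjusted p under 0.05, 3 called by DESeq2 and none by edgeR, and a median of -0.14 with DM11 and DM12 alone. The 9 genes that the study names in Q175 microglia, GABA receptor and glutathione genes among them, had no call by edgeR or DESeq2, 5 higher at an unadjusted p under 0.05, and a median of 1.16, which was -0.28 with DM11 and DM12 alone. *Gstm1*, a glutathione transferase, had 93.8, 13.9, 13.6, 64.5 and 59 CPM in the double mutant and 15.4 to 23.4 CPM in WT. *Gabrg1*, a GABA receptor subunit, had 18.3, 4.02, 3.06, 12 and 9.97 CPM and 2.96 to 6.87 CPM. In both the 3 samples with high astrocyte markers were the high ones, and DM11 and DM12 lay within or below the WT range. In the other direction, 4 of 11 endothelial and 3 of 7 mural cell markers were lower at an unadjusted p under 0.05, with medians of -0.83 and -0.84, none called by edgeR and 1 (endothelial) by DESeq2. Their levels were 3.47 to 4.41 and 3.05 to 4.45 in the double mutant and 3.42 to 7.49 and 3.13 to 8.54 in WT, highest in WT2. With the same mean scaled level of astrocyte, neuronal and oligodendrocyte genes in the model, all 25 genes called against WT kept their direction and edgeR called 11 of them: *Tyrobp*, *St8sia6*, *Ccl3*, *Cst7*, *Igf1*, *Spp1*, *Clec7a*, *Mmp12*, *Klk8*, *Lgi4* and *Zfp74*. The 14 that lost the call were *Lyz2*, *Olfm4*, *Postn*, *Olfr111*, *Olfr110*, *Lilrb4a*, *Ptger4*, *Rai14*, *Ccl4*, *Lpl*, *Ch25h*, *Tlr2*, *Siglecg* and *Lox*. DESeq2 with that term called all 25. The part of endothelial and mural cells was not tested.

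The double mutant samples were also compared with the single mutants, tests that share these 5 samples with the comparison against WT. Against Tyrobp-KO, edgeR called 0 of 17723 genes, with 883 higher (4.98%) and 1460 lower (8.24%) at an unadjusted p under 0.05, 2343 in all (13.2%), and DESeq2 called 680 (3.84%), 270 higher (1.52%) and 410 lower (2.31%). The 3 Tyrobp-KO samples were uneven, with an astrocyte marker level of 22.4 to 127. Against Q175, edgeR called 2 of 18059 genes (0.0111%), *Tyrobp* and *St8sia6*, both lower, with 623 higher (3.45%) and 823 lower (4.56%) at an unadjusted p under 0.05, 1446 in all (8.01%), and DESeq2 called 41 (0.227%), 12 higher (0.0664%) and 29 lower (0.161%). A test of the interaction of both alleles over all 18 samples called 0 of 18613 genes with edgeR, with 1118 at an unadjusted p under 0.05, 3 of them among the 25, and the smallest adjusted p among the 25 was 0.716.

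Of the 25 genes called against WT, Tyrobp-KO samples did not overlap with WT in 22 and with the double mutant in 4. Q175 samples overlapped with WT in all 25 and did not overlap with the double mutant in 17. Shares over all genes were not computed for these overlaps, so they are not a result about the 25 genes. Tyrobp-KO had 3 samples and the other groups 5, so the overlap counts of Tyrobp-KO and of Q175 are not alike. At an unadjusted p under 0.05, 5 of 23 tested differed from Tyrobp-KO (13.2% of all genes) and 25 of 25 from Q175 (8.01%). The 25 were chosen with the same double mutant samples, so these counts are a description. Side by side, *Spp1* had 0.474 to 0.637 CPM in Tyrobp-KO and 6.32 to 155 CPM in Q175, a log2 fold change of 0.94 (SE 0.95) against Tyrobp-KO, which rests on DM5, and -5.72 (SE 1.05) against Q175. Without DM5, *Spp1* did not reach the level to be tested against Tyrobp-KO. *St8sia6* had 2.61 to 3.66 CPM in Tyrobp-KO and 10.9 to 44.6 CPM in Q175, with log2 fold changes of 0.023 (SE 0.28) and -2.87 (SE 0.39). For both genes the Tyrobp-KO and double mutant samples overlap and the Q175 samples do not overlap with either. *Lyz2* had 191 to 218 CPM in Tyrobp-KO, above all double mutant samples and just below or within the WT range, with the double mutant at -0.84 on the log2 scale relative to Tyrobp-KO and an adjusted p of 0.291. *Cd44*, an adhesion receptor that binds osteopontin and hyaluronan, had 4.24 to 5.92 CPM in the double mutant, 8.66 to 12.9 CPM in Tyrobp-KO and 6.38 to 13.6 CPM in WT. The double mutant lay below both, with adjusted p of 0.291 and 0.545. *Lpl* lay the other way, at 6.03 to 8.57 CPM in Tyrobp-KO against 9.30 to 15.2 CPM in the double mutant (log2 fold change 0.67, adjusted p = 0.311). *Tyrobp* itself had a lower CPM in every double mutant sample than in any Tyrobp-KO sample (log2 fold change -0.61, adjusted p = 0.291).

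Other lists held no calls by edgeR. For the counts below, 3.34% of all genes were higher and 2.8% lower at an unadjusted p under 0.05. Cholesterol synthesis enzymes (20 genes, median 0.048), subunits of the repressive complex PRC2 (13, 0.026), Huntington disease modifier genes (11, 0.0031) and proteasome subunits (38, -0.13) had no member called by edgeR or DESeq2 and none at an unadjusted p under 0.05. The 79 ribosomal protein genes also had no member at an unadjusted p under 0.05, with 64 below 0 and a median of -0.20. Antigen presentation genes had a median of -0.078 over 15, with *B2m* lower at an unadjusted p under 0.05 (-0.71). Of 18 immediate early and dissociation genes tested, 4 were lower at an unadjusted p under 0.05, none was called by edgeR or DESeq2, and the median was -0.34. *Egr1* had 3.02 to 10.6 CPM in the double mutant and 10.3 to 17 CPM in WT (log2 fold change -1.03, adjusted p = 0.631). Glutathione genes had a median of 0.24 over 17, with 2 higher and 1 lower at an unadjusted p under 0.05, and heat shock chaperones (0.024 over 12), GABA receptor and transport genes (-0.017 over 19) and complex I genes encoded in the nucleus (-0.027 over 36) had 1, 2 and 1 higher. Among markers of other cells, none of the lists had a call by edgeR, and the medians were -0.21 for 16 medium spiny neuron, 0.10 for 13 neuronal, 0.19 for 12 oligodendrocyte and 0.49 for 8 oligodendrocyte precursor genes. At an unadjusted p under 0.05, 3 neuronal, 2 oligodendrocyte and 1 oligodendrocyte precursor genes were higher, and no medium spiny neuron gene passed. DESeq2 called 1 neuronal gene higher. Ependymal and choroid plexus genes had a median of 1.31 over 8 tested, with 2 higher at an unadjusted p under 0.05 and DM11 the highest of the 10 samples. Monocyte and neutrophil genes (median -0.12 over 12) and border macrophage genes (0.031 over 4 of 9) had none at an unadjusted p under 0.05, and 3 of 13 lymphocyte genes reached the level to be tested.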

How the data were processed

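The submitters counted RNA sequencing reads of CD11b-enriched striatal cells, 1 library per sample, made with SMART-Seq v4 without strand information. Per the labels and the study's methods, the authors aligned reads with STAR to the mouse genome GRCm38 and counted them per gene with featureCounts, and the deposited table holds raw counts for 55536 Ensembl genes, all of which match GENCODE M21. The labels also name GRCh38 as the build, and 2 striata per sample where the methods name 1. The table has 2 columns without a labelled sample, which were not used.

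Groups were taken from the labelled genotype. Genes that reached 1 CPM in any sample compared were kept, scaled by TMM and tested with edgeR 4.0.16 (quasi-likelihood test, R 4.3.3), with Benjamini-Hochberg adjustment and an FDR threshold of 0.1. Adjusted p values are edgeR's over all genes tested unless DESeq2 (1.42.0) is named, and fold changes are of edgeR's fit. The study used DESeq2, which was run as an alternative. Printed levels are TMM-scaled CPM. Each sample has its own number and sex in the labels, and p values measure the spread between samples, whose source as separate mice the labels give only in this way. The interaction was fitted over all 4 groups.

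The members of the lists and the comparison were chosen with earlier results of these data known. Genes were named by rule: Tyrobp, up to 15 called genes per direction by p, further genes up to 10 per direction without overlap and with a mean normalized count of at least 50 in 1 group, list members, called genes within 15 Mb of Tyrobp, and the first 10 DESeq2 calls per direction. Counting error alone limits the values of genes with few counts, and reads of overlapping genes or near-identical copies could not be separated. Promoter windows came from RefSeq. Alternatives covered the tool, normalization, filter, threshold, samples in the fit, covariates and each sample left out, and the fits without DM5, DM13 and DM16 were chosen after seeing the data.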

Additional observations from a re-analysis of the deposited data

Results flagged for a closer look

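Within groups of 5 samples, a sample was marked where its gap to the nearest other sample exceeded 0.71 of the group's range. Of 76 groups tested (25 genes and 13 marker lists), 9 had one (11.8%). A rate of about 1 in 20 holds for normal, independent values only. Here the levels were not put on a log scale, and each of the 9 was the highest of its group, so the share is a description. *Ccl3* was 37.9 CPM in WT1 against 16.2 to 21.5 CPM in the other WT samples. *Spp1* was 3.88 CPM in DM5 against 0.212 to 0.820 CPM in the other double mutant samples, and without DM5 its log2 fold change was -6.92. *Ptger4* was 0.993 CPM in DM11 against 0.300 to 0.438 CPM, and *Ch25h* 0.849 CPM in DM16 against 0 to 0.233 CPM. Among marker levels (geometric mean of CPM + 1), medium spiny neuron markers were 44.8 in WT6 against 8.73 to 18.9 in the other WT samples. In the double mutant, markers of oligodendrocyte precursors were 18.4 in DM5 against 6.25 to 9.22, ependymal and choroid plexus markers 7.71 in DM11 against 3.36 to 3.93, monocyte and neutrophil markers 9.97 in DM13 against 3.86 to 4.94, and T, B and NK cell markers 1.57 in DM11 against 1.25 to 1.33. All double mutant values of *Spp1* and *Ptger4* remained below all WT values.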

How the results depend on the processing

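The 25 calls against WT became 123 with DESeq2, 93 with DESeq2 and sex as a term, 89 with DESeq2 and the non-microglial marker score as a term, 16 at an FDR of 0.05, 11 with edgeR and the score, and with DM11 and DM12 alone 5 with edgeR and 41 with DESeq2. They numbered 19 to 30 under the other settings and 9 to 26 with 1 sample left out. The 0 calls against Tyrobp-KO became 680 with DESeq2. The 2 calls against Q175 became 41 with DESeq2, 15 with all 4 groups in 1 fit, 9 without a filter, and 1 at an FDR of 0.05, with sex or with the score, and 1 to 5 with 1 sample left out (5 without Q175 replicate 9, and 1 without Q175 replicate 3 or 14 or any 1 double mutant sample). The 16 called members of the gene lists became 36, 30 and 29 with DESeq2 alone, with sex and with the score, 9 at an FDR of 0.05, 7 with edgeR and the score, 3 with DM11 and DM12 alone, and 6 to 14 with 1 sample left out (14 without WT6, 6 without WT1, and 7 to 10 without WT2, WT7, DM12, DM13 or DM16). No called gene reversed its direction over 600 results, of which 161 missed the threshold. List medians moved by more than 1 SD between samples (the pooled SD within WT and the double mutant of each sample's median over the list) in 6 of 741 results: ependymal markers 0.15 without DM11, T, B and NK cell markers 0.040 without DM11 and 0.076 with filterByExpr, and with the score mitochondrially encoded genes 0.31, glutathione genes 0.032 and genes named by the study 0.41. The cause was not tested. No paired analysis was possible because the groups share no replicate number. Genes with few counts, such as *Lox* and *Ch25h*, are limited by depth.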
